A study of Mus musculus and Homo sapiens with 90 samples.

Results

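The regions described here are putative regulatory DNA elements that gave less reporter RNA than the negative controls both in HepG2 cells and in the liver of conventional mice. A region's activity was the log2 ratio of its mean RNA to its mean DNA, both as CPM (counts scaled to the library total) with 1 CPM added, minus the median of the same value over the negative controls of that table. A region was a member when its activity was at most -0.75 in both systems and its mean DNA count was at least 100 in both. Of 47986 test regions that met the DNA minimum in both systems, 4011 (8.36%) were members. Each sub-library's copy of a region counted separately, and on that basis 103435 test regions were listed in any table. Low activity in HepG2 cells and in conventional liver chose the members, so those values are given as a description and not tested. Activity in germ-free liver and in Hep3B cells played no part in the choice and was tested.

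A massively parallel reporter assay places many DNA elements in a reporter construct and counts the RNA each one yields against the DNA that was delivered. Enhancers raise the RNA above that of neutral DNA. Silencers, which recruit repressor proteins, can lower it below neutral DNA, and the same element may act either way depending on the transcription factors a cell holds. The liver is a common setting for such assays because its hepatocytes take up delivered DNA well and share many transcription factors with liver cancer lines.

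The assay was run on 5 sub-libraries of regions, counted in 82 reporter libraries. HepG2 is a human liver cancer line, labelled p53 wild type. The samples titled Hep3B, another human liver cancer line, are labelled p53-null and cover sub-library 2 only. HepG2 stands in both their source and their cell line entries, and they were treated as Hep3B by their titles. Conventional liver came from C57BL/6 mice with no treatment entry, and germ-free liver from C57BL/6 mice whose treatment entry is germ-free. The labels used here give no age, and reporter counts hold no marker genes against which the tissue could be checked. Each cell line is a single tumour-derived line, and the livers are mouse tissue in which almost all members are elements with names of the human registry form (EH38D). Whether a group's libraries stem from different cultures or animals is not stated in the labels, so the p-values reflect only library-to-library spread, which may be technical.

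HepG2 cells had 14 RNA libraries and 1 DNA library per sub-library, conventional and germ-free liver 15 RNA and 15 DNA libraries each, and Hep3B 2 RNA libraries and 1 DNA library. RNA totals ran from 1172822 to 8202279 counts per library in HepG2 cells and conventional liver, from 2740171 to 25625463 in germ-free liver, and from 9394679 to 17696987 in Hep3B. The smallest RNA count in any table was 10. A region with fewer RNA counts was therefore not listed, and a silent region could not enter. At a DNA count of 100 that floor put the lowest activity that could be listed at -0.5 in HepG2 sub-library 1 and at -0.9 in conventional liver sub-library 1, so shallow regions of that sub-library could not be members at all. Reads from polymerase chain reaction are not independent molecules, so a count need not be a number of molecules.

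Members were found in each of sub-libraries 1 to 5, at 758 of 13678 (5.54%), 207 of 4204 (4.92%), 1034 of 11329 (9.13%), 966 of 7461 (12.9%) and 1046 of 11314 (9.25%) eligible regions. The share was highest in sub-library 4. Low activity in HepG2 alone was met by 8291 eligible regions (17.3%) and in conventional liver alone by 9537 (19.9%). Members were 48.4% of the first list and 42.1% of the second. The negative controls, whose names have the form of budding yeast genes followed by a 190-base span, met the same rule at 235 of 4253 (5.53%).

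Among the 4011 members, activity in HepG2 cells had a median of -1.43, with quartiles of -1.99 and -1.06. In conventional liver the median was -1.38, with quartiles of -1.88 and -1.04. The other eligible regions had medians of 0.42 and 0.24. In 1992 members (49.7%) each HepG2 and each conventional library by itself lay at or below -0.75. Each HepG2 library did so in 2969 members (74%) and each conventional library in 2478 (61.8%), so single libraries above the threshold were more frequent in the liver.

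The 3 members just inside the threshold, EH38D4958329sub5, EH38D4606099sub4 and EH38D4960643sub5, had a larger activity of -0.75, as did the 3 regions just outside it, EH38D4940985sub5, EH38D4401663sub1 and EH38D4893491sub4. Their single libraries crossed the threshold. In EH38D4958329sub5 the HepG2 libraries gave activities of -1.92, -0.84 and 0.07 and the conventional libraries -1.22, -1.89 and -0.64.

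The lowest member by the larger of its activities was EH38D3648186sub2, which also had very high DNA counts. In HepG2 cells it had 1188, 1892 and 1924 RNA counts against 134916 DNA counts, giving activities of -5.03, -5.63 and -5.82. In conventional liver it had 20 and 37 RNA counts against 25304 and 20111 DNA counts, giving activities of -8.32 and -6.24. Its libraries were thus far below the threshold in both systems, although the liver values rest on few RNA counts. In germ-free liver its RNA counts were 8489, 5878 and 40288 against DNA counts of 153753, 111855 and 92502, with activities of -3.73, -4.15 and -3.11. The fitted log2 RNA/DNA there was -3.60 ± 0.27 (SE, n = 3 RNA and 3 DNA libraries; edgeR adjusted p = 1.88e-05). In Hep3B the RNA counts were 1066 and 414 against 53681 DNA counts, and both activities, -9.04 and -9.05, were lower than in any HepG2 library. The Hep3B fit of RNA against DNA was -9.08 ± 0.79 (SE), with an edgeR adjusted p of 2.52e-26. That p-value depended strongly on the scale. When all regions set the scale in place of the negative controls, the fit was -9.14 with an edgeR adjusted p of 0.00193. The region was called low in both systems that did not choose it.

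EH38D5903395sub3 had activities of -5.54, -4.62 and -4.99 in HepG2 cells and of -4.65 and -5.23 in conventional liver. EH38D5933769sub3 had activities of -4.96, -4.43 and -4.43 in HepG2 cells and of -4.63 and -5.16 in conventional liver. EH38D5940064sub3, with 32284 DNA counts in HepG2 cells, had activities of -4.04, -4.19 and -3.95 there and of -5.46 and -6.16 in conventional liver. The systems overlapped at EH38D5903395sub3 and EH38D5933769sub3, while at EH38D5940064sub3 both conventional libraries lay below each HepG2 library. None of these 3 regions was listed in the germ-free table of its sub-library. EH38D4764450sub4 had activities of -4.04, -4.6 and -4.85 in HepG2 cells, of -5.67, -5.14, -7.08 and -7.1 in conventional liver, and of -6.5, -5.16 and -6.73 in germ-free liver. The HepG2 libraries of this region were the highest and those of both livers overlapped, and the germ-free fit was -6.05 ± 0.49 (SE; edgeR adjusted p = 4.57e-05). EH38D5072973sub5 was less low in germ-free liver, at -2.78, -2.25 and -2.23, than in HepG2 cells, at -4.62, -5.98 and -3.45, or in conventional liver, at -4.15, -5.65 and -4.16. Its germ-free fit was -2.40 ± 0.26 (SE; edgeR adjusted p = 7.99e-05), and its germ-free libraries did not overlap with those of either other system.

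Members carried more reporter DNA than other eligible regions. Their median DNA count was 477 in HepG2 cells against 271, and 465 in conventional liver against 270.2. Their median RNA counts were 58 and 60.5 against 127.7 and 123.8, so members were lower in RNA as well as higher in DNA. The share of eligible regions that were members was 1.94% at 100 to 200 conventional DNA counts, 7.13% at 200 to 500, 16.1% at 500 to 1000, 35.2% at 1000 to 5000 and 54.2% above 5000. Negative controls followed a similar course, from 1.51% through 5.54% and 15.6% to 39% (23 of 59) at 1000 to 5000 counts, with none eligible above 5000. DNA depth therefore moved with membership in test regions and controls alike. The rule divides by DNA, and the floor of 10 RNA counts barred some shallow regions from membership, as in sub-library 1. Part of this course was thus fixed in advance, and the part of DNA depth in low activity was not tested.

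In germ-free liver, 1101 of the 2852 members listed there (38.6%) were called low, with less RNA relative to DNA than the negative controls, against 13.3% of the 80797 test regions tested. Active calls were made for 539 members (18.9%) against 45% of test regions, and 1212 members (42.5%) passed in neither direction (edgeR's quasi-likelihood test, adjusted p below 0.05). The median fitted log2 RNA/DNA was -0.5 over the listed members and 0.7 over the test regions. The other eligible regions were called low at 10.8% and active at 48.2%. The remaining 1159 members (28.9%) were not listed in germ-free liver, against 16.7% of other eligible regions, and the listed members had passed a floor of 10 RNA counts, so these counts do not describe all members. Without germ-free replicate 3 of each sub-library, 754 members (26.4%) were low against 6549 test regions (8.11%). Unlisted members had a median of 332 conventional DNA counts against 559 in listed ones.

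The low calls depended on the scale. Scaling on all regions in place of the negative controls moved the median of all regions in germ-free liver from 0.65 to 0.03, and then 59.6% of members were low and 8.66% active, against 24.8% and 29.5% of test regions. Scaling by library totals moved that median to -0.31, with 68.9% of members low and 5.93% active against 32.4% and 21.5%. Under each of the 3 scales members were low more often, and active less often, than test regions were. Negative controls that met the membership rule and were listed in germ-free liver were low at 61 of 136 (44.9%) against 20.8% of the controls tested, and active at 17 (12.5%) against 24.3%. Controls chosen by the rule thus had a share of low calls as large as that of the members.

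Single libraries showed the same split. Each germ-free library lay below 0 in 1452 of 2852 members (50.9%) against 20.4% of test regions, and at or below -0.75 in 838 (29.4%) against 8.34%. Each germ-free library lay above 0 in 660 members (23.1%) against 53.2%. Germ-free activity over the listed members ranged from -6.07 to 5.42, with a median of -0.56 and quartiles of -1.46 and 0.37, a wider spread than the rule leaves in HepG2 cells. Across the 2852 members the correlation (r) of germ-free with conventional activity was 0.32, and with HepG2 activity 0.21. These regions share libraries and depth and had a restricted range in the systems of the rule.

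The sub-libraries differed in germ-free liver. In sub-library 1, 261 of 633 members (41.2%) were low, against 9.76% of its test regions, and 40 (6.32%) active, against 39%. In sub-library 3, 177 of 491 (36%) were low, against 7.86%, and 18 (3.67%) active, against 36%. In sub-library 4, 297 of 603 (49.3%) were low, against 11.2%, and 43 (7.13%) active, against 43.4%. In these 3 sub-libraries low calls far outnumbered active ones among members. In sub-library 2, 54 of 206 (26.2%) were low, against 20.6%, and 102 (49.5%) active, against 41.3%. The other eligible regions of sub-library 2 were low at 11.6% and active at 57.4%, so the active share of members was above that of the test regions and below that of the eligible ones. In sub-library 5, 312 of 919 (33.9%) were low, against 13%, and 336 (36.6%) active, against 60.7%. Without sub-library 5 the number of active members fell from 539 to 199 (10.3% of 1933, against 39.7% of test regions). The difference between sub-libraries was not tested, and sub-library, library preparation and the regions it holds cannot be told apart.

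The median member activity of single germ-free libraries was -0.75, -0.77 and -0.59 in sub-library 1. In sub-library 2 it was 0.29, 0.69 and 0.45, and in sub-library 3 -0.36, -0.74 and -1.28. Sub-library 4 gave -0.99, -0.6 and -1.12, and sub-library 5 gave -0.12, -0.21 and 0.14. Replicates of sub-library 3 differed most. The germ-free libraries of sub-library 2 were above 0 and those of sub-library 5 on either side of it. Unlisted members were 52.5% in sub-library 3 and 37.6% in sub-library 4, against 16.5%, 0.483% and 12.1% in sub-libraries 1, 2 and 5.

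Members that were lower in the systems of the rule were called low more often in germ-free liver. Where the larger activity was at most -3, 37 of 44 listed members (84.1%) were low. Between -3 and -2 the count was 185 of 282 (65.6%), between -2 and -1.5 it was 207 of 448 (46.2%), between -1.5 and -1 it was 370 of 1090 (33.9%), and from -1 to -0.75 it was 302 of 988 (30.6%). The active share rose as the low share fell, from 10.6% between -3 and -2 to 24.4% at the threshold. DNA depth moved with these calls too. By conventional DNA count, members were low at 12.4% of those at 100 to 200 counts, 27.7% at 200 to 500, 41% at 500 to 1000, 53.6% at 1000 to 5000 and 76.8% above 5000. Other eligible regions of the same depth were low at 4.23%, 11%, 17.6%, 24.8% and 29.3%, so members were above them in each depth range.

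By fitted log2 RNA/DNA, the lowest members in germ-free liver with at least 100 DNA counts there were, after EH38D4764450sub4, a further 4 regions of sub-libraries 3 and 5. Naming them for the lowest germ-free fits by itself favours germ-free values below those of the other systems. EH38D2334011sub3 had 32, 58 and 87 RNA counts against 9520, 7000 and 6899 DNA counts in germ-free liver, with activities of -6.15, -5.56 and -5.08. Its activities were -2.08, -1.63 and -2.05 in HepG2 cells and -1.09 and -1.24 in conventional liver. Each germ-free library was below each library of the other systems, and the germ-free fit was -5.62 ± 0.35 (SE; edgeR adjusted p = 1.56e-05). EH38D2309574sub3 had germ-free activities of -5.34, -5.24 and -5.95, against -1.82, -1.86 and -1.98 in HepG2 cells and -2.67 and -2.66 in conventional liver. Its groups did not overlap (germ-free fit -5.51 ± 0.28 SE; edgeR adjusted p = 1.52e-05).

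EH38D3341578sub5 had only 26, 10 and 16 RNA counts in germ-free liver, against 749, 1055 and 1203 DNA counts, and activities of -3.49, -4.96 and -4.62. The fit was -5.08 ± 0.49 (SE; edgeR adjusted p = 4.84e-05), lower than those activities, which hold an added 1 CPM. EH38D5106391sub5 had germ-free activities of -4.82, -5.6 and -4.87, below its HepG2 values of -3.33, -3.4 and -3.12 and its conventional values of -2.71, -3.56 and -2.88. The germ-free libraries stood apart, those of HepG2 cells and conventional liver overlapped, and the germ-free fit was -5.07 ± 0.36 (SE; edgeR adjusted p = 1.6e-05).

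The 5 members with the highest fitted germ-free values, chosen among those with at least 100 DNA counts there, were all in sub-library 5. The central 95% of negative control activities in germ-free liver was also widest in that sub-library, from -2.24 to 3.4, and 1 negative control that met the membership rule reached 4.5. EH38D5351023sub5 had 5293, 10842 and 27112 RNA counts against 314, 460 and 464 DNA counts in germ-free liver, with activities of 4.97, 5.28 and 5.99. In conventional liver it had 50, 37 and 87 RNA counts against 443, 408 and 395 DNA counts, with activities of -1.92, -1.77 and -0.55, and in HepG2 cells -2.37, -1.43 and -2.11. DNA counts were in a similar range in both livers while RNA counts were far apart, and the germ-free fit was 5.58 ± 0.43 (SE; edgeR adjusted p = 1.91e-05). EH38D5305293sub5 had germ-free activities of 5.08, 3.83 and 4.89, and its conventional values of 0.11, -2.67 and -1.37 spread widely, with 1 library above 0. Its germ-free fit was 4.77 ± 0.42 (SE; edgeR adjusted p = 2.99e-05).

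EH38D3058301sub5 had germ-free activities of 3.97, 4.17 and 5.24, against -1.26, -0.9 and -0.04 in conventional liver and -1.96, -1.91 and -0.81 in HepG2 cells. EH38D5343668sub5 had 4.1, 4.58 and 4.72, against -2.5, -1.1 and -0.24 in conventional liver and 0.05, -2.14 and -0.89 in HepG2 cells. EH38D3070237sub5 had 4.16, 4.08 and 4.62, against -0.14, -0.71 and -1.74 in conventional liver and -0.44, -1.67 and -0.54 in HepG2 cells. In each of these 3 the germ-free libraries stood apart from the others, whereas single HepG2 or conventional libraries lay above the threshold. Such a separation was favoured in advance for all 5 regions. The rule picked low HepG2 and conventional values, and the regions were named for high germ-free fits. Their germ-free fits were 4.69 ± 0.45, 4.60 ± 0.33 and 4.43 ± 0.30 (SE), with edgeR adjusted p of 4.39e-05, 1.61e-05 and 1.53e-05. The 5 fits were smaller under the other scales, 3.16 to 4.3 with all regions and 2.64 to 3.79 with library totals, and each of the 5 was called active under both (edgeR adjusted p of at most 0.000156). The conventional RNA counts of the last 3 were few, between 10 and 72 per library.

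Over the 2852 listed members, germ-free activity exceeded conventional activity in 2204 (77.3%), with a median difference of 0.99. The same difference was 0.17 over other eligible regions, of which 55.3% were higher in germ-free liver. The rule used the conventional values and picked low ones, which by itself makes another measurement of the same regions tend to be higher, so the difference was not tested. By sub-library the median difference was 0.7, 2.69, 0.88, 0.58 and 1.49 in sub-libraries 1 to 5.

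In Hep3B, each of the 207 members of sub-library 2 was listed, and 127 (61.4%) were called low, against 7.25% of the 20712 test regions tested. The other eligible regions were low at 106 of 3974 (2.67%) and active at 21.2%. The count of active members was 0 by edgeR, against 8.39% of test regions at the same adjusted p below 0.05. It was 0 by DESeq2, against 17% of test regions. At an unadjusted edgeR p below 0.05 it was also 0, a looser threshold that those 8.39% of test regions also met. The other 80 members passed in neither direction. The median fitted log2 RNA/DNA was -1.86 over the members and 0.18 over the test regions, and 198 members (95.7%) were below 0. Both Hep3B libraries lay below 0 in 191 members (92.3%) against 35.4% of test regions, and at or below -0.75 in 158 (76.3%) against 15.2%. Both lay above 0 in 5 (2.42%) against 48.3%. Among controls that met the rule, 9 of 12 were low in Hep3B, against 5.23% of controls tested, of which 0.74% were active. Scaling on all regions moved the median of all regions in Hep3B from 0.16 to 0.07, with 75.4% of members low against 13.3% of test regions, of which 23.9% were active. Scaling by library totals moved it to -0.02, with 77.3% against 15.2%, and 22% active. Hep3B had a single DNA library, so the fit takes the spread of DNA as that of the RNA libraries.

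Across the 207 members, Hep3B activity had an r of 0.65 with HepG2 activity and of 0.46 with conventional activity, over regions that share libraries. Depth moved with the Hep3B calls. At 200 to 500 conventional DNA counts 13 of 40 members were low, at 500 to 1000 it was 40 of 71, at 1000 to 5000 it was 59 of 79, and above 5000 it was 15 of 16. Other eligible regions of these ranges were low at 11 of 2031, 46 of 1444, 46 of 382 and 3 of 7. Of the 127 members low in Hep3B, 38 were low, 61 active and 27 in neither direction in germ-free liver, and 1 was not listed there. Of the 80 members without a Hep3B call, 16 were low and 41 active in germ-free liver. All listed members of sub-library 2 were low there at 26.2% and active at 49.5%, against 20.6% and 41.3% of its test regions. Whether the germ-free calls differed with the Hep3B call was not tested.

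After EH38D3648186sub2, the lowest member in Hep3B was EH38D3708876sub2, with 142 and 55 RNA counts against 885 DNA counts and activities of -5.88 and -5.84. It was low in each library, at -4.69, -4.74 and -4.82 in HepG2 cells, -4.22 and -3.69 in conventional liver and -2.49, -3.92 and -2.56 in germ-free liver. The Hep3B fit was -6.06 ± 0.66 (SE; edgeR adjusted p = 4.65e-17) and the germ-free fit -2.90 ± 0.38 (SE; edgeR adjusted p = 0.000239). Scaled on all regions, the Hep3B fit was -6.1 with an edgeR adjusted p of 0.00201. EH38D3606684sub2 had activities of -4.87 and -4.65 in Hep3B (fit -4.93 ± 0.63 SE; edgeR adjusted p = 2.19e-12) and of -4.09, -3.92 and -4.25 in HepG2 cells. On the all-region scale its Hep3B fit was -5 with an edgeR adjusted p of 0.00191. Its conventional libraries differed from each other, at -4.43 and -1.62, and its germ-free libraries were near 0, at 0.3, 0.2 and -0.09. The germ-free fit of 0.14 ± 0.18 (SE; edgeR adjusted p = 0.526) passed in neither direction and was negative under both other scales. With library totals it was called low (edgeR adjusted p = 0.0253).

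Among members with at least 100 DNA counts in Hep3B, the 3 with the highest fitted values were not called there. The rule picked low HepG2 values and these regions were named for high Hep3B fits, which by itself favours Hep3B values above those of HepG2. EH38D3591359sub2 had 13195 and 4063 RNA counts against 658 DNA counts in Hep3B, with activities of 0.92 and 0.57, whereas its HepG2 activities were -3.52, -3.65 and -3.31. The cell lines did not overlap at this region, although the Hep3B fit of 0.75 ± 0.64 (SE; edgeR adjusted p = 0.503) did not pass. In a joint fit with HepG2 the value was 0.8, which did not pass either (edgeR adjusted p = 0.0763). The region was at 0.56 without Hep3B replicate 1 and at 0.91 without replicate 2, each time on a single Hep3B RNA library. Its conventional activities were -7.43 and -3.48, from 10 and 74 RNA counts, and its germ-free activities of -1.73, -1.43 and -1.71 gave a low call (fit -1.63 ± 0.17 SE; edgeR adjusted p = 7.7e-05). EH38D3837564sub2 had Hep3B activities of -0.58 and 0.0, both above its HepG2 values of -0.9, -0.66 and -0.89. EH38D5750103sub2 had Hep3B activities of -0.59 and -0.05, both above its HepG2 values of -1.04, -0.99 and -1.39. It was active in germ-free liver, at 0.61, 1.23 and 0.31 (fit 0.76 ± 0.25 SE; edgeR adjusted p = 0.0275), a call lost under both other scales and without germ-free replicate 2 or replicate 3, and low in conventional liver, at -3.47 and -1.8.

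Almost all members had human-registry names. EH38D names made up 4005 members of 47907 eligible regions (8.36%), and EM10D names, the form used for mouse elements, made up 6 of 75 (8%). No member was among the 4 eligible regions named Peak_. The 5 EM10D members with the lowest values come from 3 elements. EM10D2945255 was a member in sub-libraries 3 and 4, and its activity was low in HepG2 cells in each of 4 sub-libraries, at -1.36, -1.0, -0.91 and -1.69. EM10D2199452 was a member in sub-libraries 3 and 5, with HepG2 activities of -1.35, -1.15, -1.73 and -1.73 in its 4 sub-libraries. Both elements were low in HepG2 cells wherever they were listed, and neither was listed in germ-free liver in the sub-libraries where it was a member. Elsewhere their germ-free activities were -1.77 and -1.61. EM10D2199492 was a member in sub-library 3, where its HepG2 libraries gave -0.94, -0.99 and -1.16, its conventional libraries -1.56 and -1.03 and its germ-free libraries 0.67, 1.0 and 0.12. Its germ-free fit of 0.62 ± 0.33 (SE; edgeR adjusted p = 0.135) passed in neither direction and turned negative when scaled by library totals.

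Elements placed in several sub-libraries gave a repeat measurement outside the tables that made them members. For 8 such elements, 11 members in all, 24 measurements in other sub-libraries were listed. HepG2 activity was below 0 in 18 of 23 of these and at most -0.75 in 9, with a range from -2.33 to 1.57. Conventional activity was below 0 in 11 of 15 and at most -0.75 in 7, from -2.22 to 1.96. Germ-free activity was below 0 in 7 of 21 and at most -0.75 in 4, from -1.8 to 2.45. Of the other eligible regions, 66.5% had HepG2 activity above 0, 59.6% had conventional activity above 0 and 70.9% of those listed had germ-free activity above 0. Those at most -0.75 made up 9.73%, 12.6% and 13.1%, in the same order. The germ-free share of repeats below 0 was thus near that of other eligible regions, which was not tested. In germ-free liver 16.6% of test regions with at least 100 DNA counts were at most -0.75. Sub-libraries in which an element was itself a member are left out of the repeat counts. The repeat counts therefore lack the repeats that passed the rule in both systems, and no comparison between systems is drawn from them.

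EH38D4930920 was low in both sub-libraries that held it, with HepG2 activities of -1.29 and -1.05, conventional activities of -1.72 and -0.87 and germ-free activities of -2.14 and -2.39 in sub-libraries 4 and 5. EH38D5698027, a member in sub-library 5, had conventional activities of -1.28, -0.83, -1.66, -1.05 and -1.57 in sub-libraries 1 to 5 and HepG2 activities of -0.23, -0.58, -0.66, -0.59 and -1.08. Each of those 10 values was below 0, and only in sub-library 5 did both pass the threshold. Its germ-free activities were 0.38, 1.56, -0.56, -0.02 and 0.92, on either side of 0. EH38D2419694, a member in sub-library 3, was low in HepG2 cells in each sub-library, at -0.96, -1.01, -1.84, -1.17 and -2.33, but in conventional liver it was -0.41, -0.77, -0.09 and 0.14 in sub-libraries 1, 3, 4 and 5.

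EH38D3158849 went the other way. It was a member in sub-library 5, at -1.02 in HepG2 cells and -1.58 in conventional liver, yet its HepG2 activity was 1.57, 1.26, 0.89 and 1.57 in sub-libraries 1 to 4 and its conventional activity 1.96, 0.96 and 1.74 in sub-libraries 1, 3 and 4. In sub-library 5 its HepG2 libraries gave -2.1, -0.22 and -1.14. EM10D2546617, a member in sub-library 3, had HepG2 activities of -0.01, -0.55, -0.78, -0.8 and -0.73 and conventional activities of -0.93, -2.22, -1.28 and -0.02 in sub-libraries 1 to 4. Its germ-free activities were all above 0, at 1.1, 1.58, 0.91, 1.9 and 1.91.

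Among eligible regions of 1 sub-library there were 3263 pairs with consecutive EH38D numbers, of which 33 had both members and 377 one member. A member stood beside another in 14.9% of the 443 pair places that members filled, whereas members filled 6.79% of all pair places. Whether consecutive numbers are neighbouring DNA was not examined here, and positions and sequences of the regions were not used. In sub-library 5 a run of 3 consecutive members was found. EH38D5143230sub5 had germ-free activities of -2.34, -2.58 and -2.28 (fit -2.34 ± 0.30 SE; edgeR adjusted p = 0.000201). EH38D5143232sub5 was lower, at -4.67, -4.12 and -4.05 (fit -4.27 ± 0.35 SE; edgeR adjusted p = 2.22e-05). EH38D5143231sub5 lay near 0, at -0.36, -0.33 and -0.2 (fit -0.24 ± 0.27 SE; edgeR adjusted p = 0.459) and was called low only under both other scales, while its HepG2 activities were -2.64, -4.18 and -3.0 and its conventional activities -2.77, -2.76 and -2.77. The germ-free libraries of the 3 members did not overlap, and in conventional liver EH38D5143232sub5, at -3.27, -4.15 and -3.4, also lay below the libraries of the other members.

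EH38D5116135sub5 and EH38D5116136sub5 were both low in germ-free liver, at -2.91, -3.2 and -2.5 and at -4.01, -5.36 and -4.72, with no overlap between the members. EH38D5111732sub5 and EH38D5111733sub5 overlapped there, at -1.03, -2.34 and -1.33 and at -1.31, -2.0 and -1.32, and both were called low (edgeR adjusted p of 0.00677 and 0.00349). EH38D5224275sub1 was called low (fit -1.55 ± 0.27 SE; edgeR adjusted p = 0.00191), while EH38D5224276sub1, with activities of -0.26, -1.75 and -0.47, was not (edgeR adjusted p = 0.129) except under both other scales. These were the pairs with the lowest values of the 33, and 7 of their 9 members were called low in germ-free liver, against 13.3% of test regions. The 9 fell in ranges of larger activity of at most -3, -3 to -2 and -2 to -1.5. All listed members of those ranges were low at 84.1%, 65.6% and 46.2%.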

How the data were processed

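Reporter RNA and DNA were measured by sequencing in HepG2 cells, Hep3B cells and the livers of conventional and germ-free C57BL/6 mice. The authors deposited counts per region and library, 16 tables in all. The submitters' processing notes name BWA, DESeq2 and edgeR without roles. Whether counts were collapsed by molecular identifiers is not given in the sources used here. Samples were grouped by their labels, and the source and cell line entries of the samples titled Hep3B read HepG2. Germ-free and Hep3B RNA were tested against DNA with edgeR 4.0.16 (quasi-likelihood, R 4.3.3), with factors from trimmed means over the negative controls and a mean DNA count of at least 10. P-values were adjusted by Benjamini-Hochberg over all regions of all sub-libraries, at 0.05, and the script was tested on simulated data. Alternatives were DESeq2 1.42.0, other scales, DNA minimums, thresholds, blocks and libraries left out. Members and lists were chosen with earlier results of these data known. Named regions were the lowest members, the germ-free and Hep3B extremes, those at the threshold, EM10D or repeated elements and consecutive numbers. RNA-seq files were not used here.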

Additional observations from a re-analysis of the deposited data

Results flagged for a closer look

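In 10 named members each germ-free library was above 0 and each conventional library below it. The difference was not tested because the rule used the conventional values, and some of these members were named for their high germ-free fits. Over all members, each conventional library lay below 0 in 3920 of 4011 (97.7%). Each germ-free library lay above 0 in 660 of the 2852 listed members (23.1%), against 53.2% of test regions. The mean activity in germ-free liver minus that in conventional liver was 6.83 in EH38D5351023sub5, 5.75 in EH38D5343668sub5, 5.19 in EH38D3058301sub5, 5.15 in EH38D3070237sub5 and 2.81 in EH38D4958329sub5. It was 3.35 in EH38D5750103sub2, 2.52 in EH38D5698027sub5, 2.28 in EM10D2546617sub3, 1.89 in EM10D2199492sub3 and 0.98 in EH38D4606099sub4. EH38D3591359sub2, named for its high Hep3B fit, had both Hep3B libraries above 0 and the 3 HepG2 libraries below it, with a difference of 4.24 that was not tested. In EH38D4930920sub4 the gap between 1 conventional liver library and the other 3 was 0.892 of the group's range, past Dixon's critical value. Chance gives such a gap in about 5% of groups, and the named regions held 8 groups of 4 libraries.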

How the results depend on the processing

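Scaling changed most. With factors from all regions, members called low in germ-free liver numbered 1699 and active 247, test regions low 20058 there and 2752 in Hep3B. With library totals alone the counts were 1966, 169, 26206 and 3154. The fitted log2 value of EH38D3606684sub2 then turned from 0.14 to -0.21 and -0.48, of EH38D4606099sub4 from 0.25 to -0.42 and -0.86, and of EH38D5698027sub5 from 0.99 to -0.26 and -0.74. EH38D4958329sub5 turned from 1.63 to -0.12 and EM10D2199492sub3 from 0.62 to -0.31 with library totals. EH38D4958329sub5 lost its active call under both scales (0.37 with all regions), and EH38D5698027sub5 lost its own with all regions and was called low with library totals (edgeR adjusted p = 0.0268). EH38D3606684sub2 and EH38D4606099sub4, at first called in neither direction, were also called low with library totals (edgeR adjusted p of 0.0253 and 0.00768). The cause was not tested. Leaving out sub-library 5, chosen after seeing the data, left 199 active members, and leaving out sub-library 2 left 6481 low test regions, each with fewer regions tested. A Hep3B DNA minimum of 100 left 687 low of 2339 test regions (29.4%), with 78.1% of members low. An activity threshold of -0.5 gave 6279 members and one of -1 gave 2602. Leaving out 1 library number in turn gave 3996 to 4167 members. In germ-free liver it gave 754 to 1062 low and 395 to 516 active members, and 6549 to 11088 low test regions. The low shares were 26.4% to 37.2% of members against 8.11% to 13.7% of test regions. The active shares were 13.8% to 18.1% against 33.8% to 42.9%. A replicate block gave 1158 low and 477 active members (40.6% and 16.7%, against 13.5% and 41.7% of test regions). Same-numbered RNA and DNA libraries had correlations of -0.055 to 0.03, and 8 of 15 RNA libraries correlated best with their own number, so the numbers were not taken to pair the libraries. In germ-free sub-library 3 some RNA libraries have different replicate numbers in the headers of the counts and in the sample titles. The titles were used, and the count of 8 depends on that choice. Regions with few RNA counts limit the precision, and regions under 10 RNA counts were not listed.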
